A study of Homo sapiens with 4 samples.

Results

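The S100 genes described here are S100A2, S100A3, S100A4, S100A6, S100A8, S100A9, S100A10, S100A11, S100A14 and S100P, 10 of the 19775 genes that the array platform's annotation names. They were measured by every probe set annotated with exactly 1 symbol from this list, 13 of the 41097 probe sets with a single symbol. The array has 54675 probe sets in all, each a group of short probes that reads the transcripts of a gene. RNA came from 4 cultures of MDA-MB-231, an established human breast carcinoma line of mesenchymal-like, triple-negative type, with 1 Affymetrix U133 Plus 2 array per culture. The stable pair consisted of cells transduced with an shRNA (short hairpin RNA) against ZEB2 and of cells transduced with the control vector pLVTH. The transient pair consisted of cells transfected with a pool of siRNAs (small interfering RNAs) against ZEB2 and of cells transfected with siRNA against luciferase, a gene absent from human cells. The siRNAs were given at 20 nM with Dharmafect, the cells were washed after 24 hours, and RNA was taken after a further 48 hours. All cultures were grown in Leibovitz-15 medium with serum and antibiotics. The labels do not say whether the stable lines were clones or pools. Since each group had 1 array, knockdown differences inside a pair carry neither a replicate error nor a p-value.

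S100 proteins are small EF-hand proteins that bind calcium, form dimers and then dock onto target proteins. Inside the cell they act on the cytoskeleton and, through annexins, on membranes. Several are also released and bind the receptors RAGE (gene AGER) and TLR4. Most of their genes lie side by side in a cluster on chromosome 1, and in breast cancer S100A4 is known for its link with motility and metastasis. ZEB2 is a zinc-finger repressor that drives epithelial-mesenchymal transition and binds DNA at the letters CACCT.

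Values are log2 expression values, so that 1 unit is 2-fold, and differences are knockdown minus control. The brightest ZEB2 probe set read 3.52 in shRNA ZEB2 cells against 6.12 in shRNA control cells (-2.60), and 3.51 in siRNA ZEB2 cells against 6.56 in siRNA control cells (-3.05), so the targeted gene was the lower in each knockdown. A probe set was called measurable when it reached 4.77, the 40th percentile of all values, on at least 1 array, and 15082 genes passed. Mesenchymal markers of the line (VIM, CD44, CAV1, MSN, AXL and LGALS1) read above this level on every array, and by their brightest probe sets none differed by more than the 0.46 of CAV1. With the probe sets of a gene averaged, VIM differed by -0.58 and AXL by -0.56 between the controls. Of markers that are low in this line, PGR stayed under the level on every array by its brightest probe set. By theirs, KRT19, EPCAM, GATA3, ESR1 and ERBB2 were above it on every array. KRT19 read 10.77 to 11.52, ESR1 6.08 to 6.54 and ERBB2 7.83 to 7.97. CDH1 (E-cadherin) read 8.35 and 7.37 on the siRNA ZEB2 and siRNA control arrays but 4.26 and 3.54 on the shRNA ZEB2 and shRNA control arrays. The other CDH1 probe set read between 4.20 and 4.69 on the 4 arrays and showed no such gap. The arrays of a pair correlated at r = 0.994 (siRNA) and r = 0.974 (shRNA) across genes, and the controls of the 2 series at r = 0.928. The labelled cRNA was made from 100 ng of total RNA in the siRNA series and from 2 µg in the shRNA series, so the knockdown method, the RNA input and any processing batch cannot be told apart.

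Of the 10 S100 genes, 8 passed the filter. S100A14 passed through 3 of the 4 arrays, the other 7 passed on every array, and S100A8 and S100A9 stayed under the level on all 4. In the shRNA pair 1 of the 8, S100A4, was at least 2-fold higher and 0 were 2-fold lower, where 4.47% of all genes differed 2-fold, 2.39% higher and 2.08% lower. In the siRNA pair 0 of the 8 differed 2-fold, where 0.172% of all genes did. The median difference of the 8 was 0.04 with shRNA and 0.06 with siRNA, against -0.02 over all genes in each case. Between the controls, siRNA control minus shRNA control, 4 of the 8 were at least 2-fold higher and 0 lower, where 15.8% of all genes differed 2-fold, 10.8% higher and 4.99% lower. There the median of the 8 was 1.03, against 0.06 over all genes. These counts describe genes that were chosen with earlier results of the same arrays known.

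**Figure D1:**
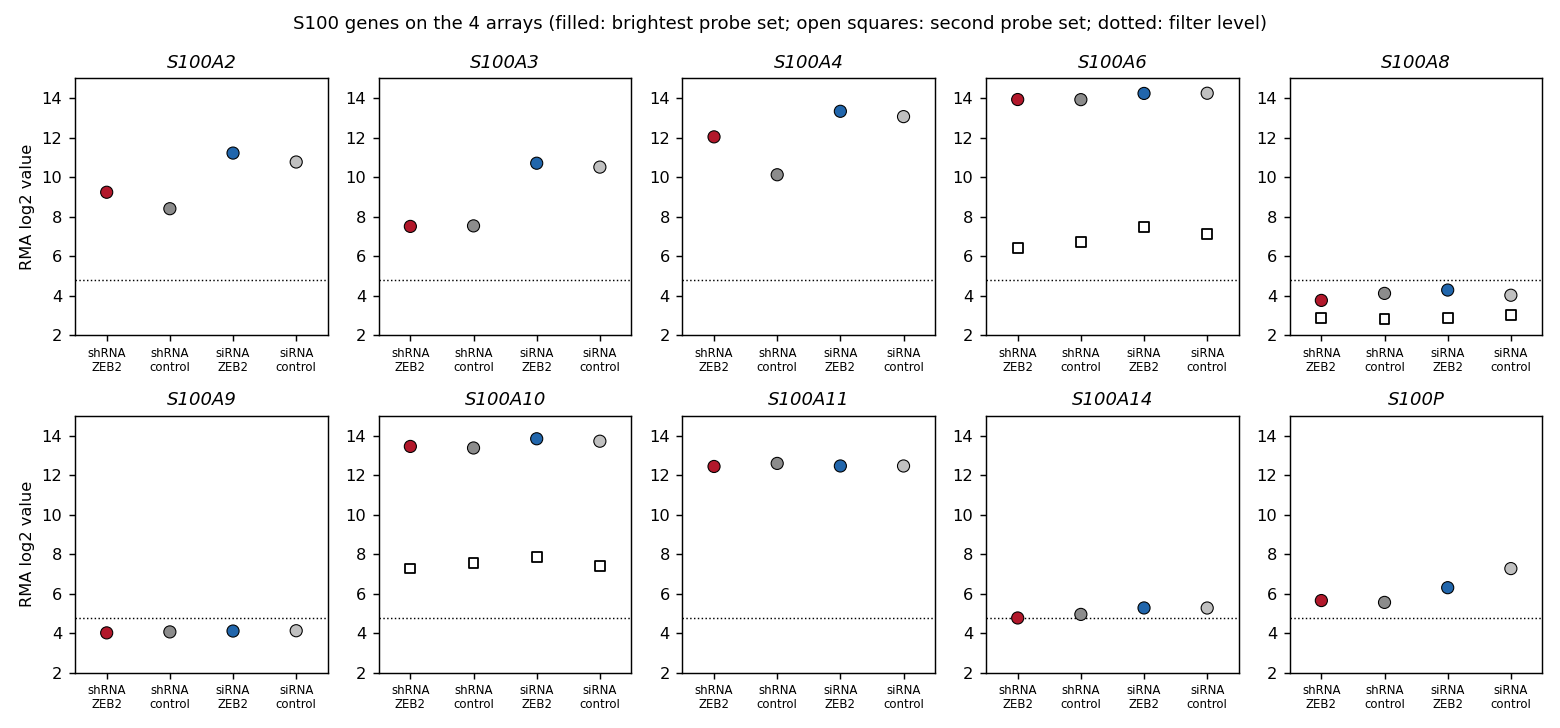
RMA log2 values of the 10 S100 genes on the 4 arrays, 1 array per group, with 1 panel per gene. Filled points are the brightest probe set, open squares a second probe set, and the dotted line the filter level of 4.77. S100A2, S100A3 and S100A4 stand higher on both siRNA arrays than on both shRNA arrays, while the brightest probe sets of S100A6, S100A10 and S100A11 are nearly flat.

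S100A4, which binds non-muscle myosin and is used as a marker of mesenchymal and fibroblast-like cells, was the member with the largest difference in the shRNA pair. Its single probe set (203186_s_at) read 12.04 in shRNA ZEB2 cells, against 10.12 in shRNA control cells. It read 13.34 in siRNA ZEB2 cells, against 13.07 in siRNA control cells. S100A4 was therefore higher in both knockdowns, by 1.92 (3.78-fold) with shRNA and by 0.27 (1.21-fold) with siRNA. The shRNA control was the low array, and the shRNA knockdown lay between it and the siRNA arrays. The siRNA control was 2.94 (7.69-fold) above the shRNA control, a gap wider than either knockdown difference. With the siRNA control in its place, a comparison added after the values were seen, the shRNA knockdown differed by -1.02, the opposite sign. An array of bulk RNA does not tell more cells expressing a gene from more RNA per cell. The suffix of the S100A4 probe set marks one that can read more than 1 transcript.

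The next genes of the cluster, S100A3 and S100A2, also showed a gap between the series, and of these S100A2 was the higher in both knockdowns. S100A3, a cysteine-rich zinc-binding member known from the hair cuticle, read 7.51 in shRNA ZEB2 cells and 7.54 in shRNA control cells. It read 10.71 in siRNA ZEB2 cells and 10.51 in siRNA control cells. S100A3 thus formed 1 level per series, with differences of -0.03 and 0.20 inside the pairs and of 2.97 (7.86-fold) between the controls. S100A2, a member found in basal epithelial cells and often low in breast cancer, read 9.24 in shRNA ZEB2 cells, against 8.41 in shRNA control cells, a difference of 0.83 (1.78-fold). It read 11.22 in siRNA ZEB2 cells, against 10.77 in siRNA control cells, a difference of 0.45 (1.37-fold). S100A2 was the only other member at 1.5-fold in the shRNA pair, where 14.7% of all genes reached that size and 7.55% were higher, and it was the highest of the 8 in the siRNA pair. Its controls differed by 2.36 (5.15-fold), with the siRNA control again the higher.

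**Figure D2:**
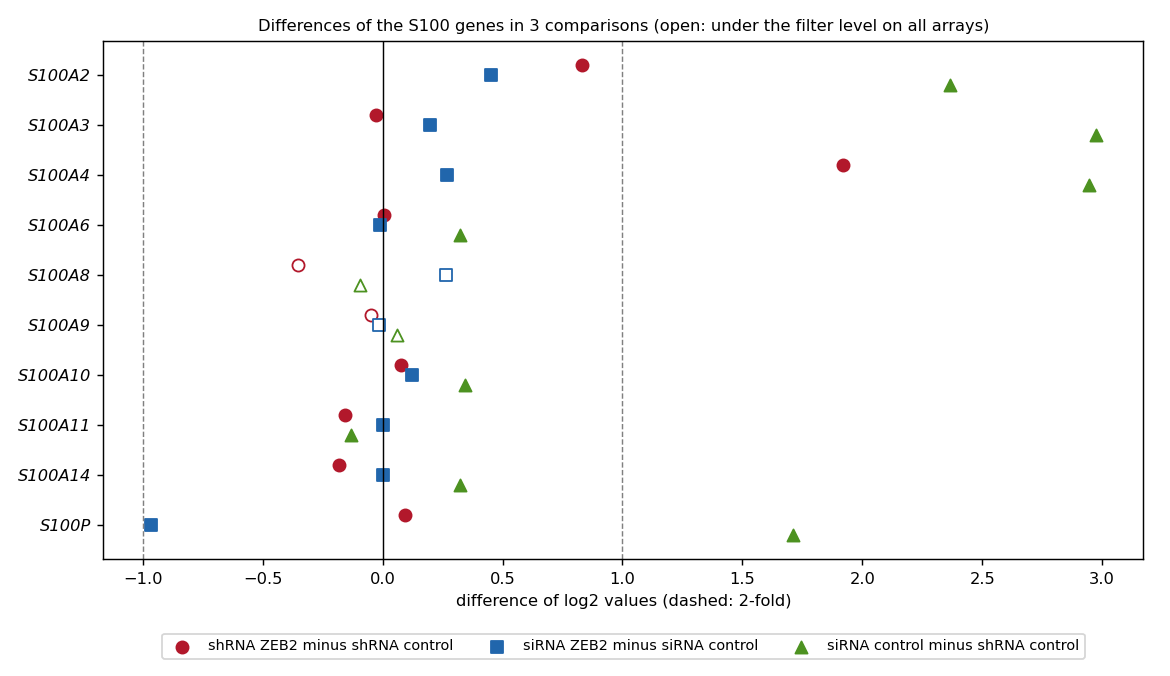
Differences of log2 values for the brightest probe set of each S100 gene in the 3 comparisons, with dashed lines at 2-fold. S100A4 is the only gene past 2-fold inside a pair, at 1.92 in the shRNA pair, and S100A2, S100A3, S100A4 and S100P are past it between the controls.

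The promoters of these 3 neighbours are printed because their genes shared the gap between the series. Each runs 250 bases before to 50 after an annotated transcript start, from RefSeq with build GRCh38.p14, on the minus strand, and read 5′ to 3′. S100A4 lies at chr1:153545757-153546056, S100A3 at chr1:153549209-153549508, and S100A2 has a start at chr1:153565795-153566094 and another at chr1:153563838-153564137. Capitals mark the short ZEB core CACCT on either strand (AGGTG on the printed strand).
S100A4: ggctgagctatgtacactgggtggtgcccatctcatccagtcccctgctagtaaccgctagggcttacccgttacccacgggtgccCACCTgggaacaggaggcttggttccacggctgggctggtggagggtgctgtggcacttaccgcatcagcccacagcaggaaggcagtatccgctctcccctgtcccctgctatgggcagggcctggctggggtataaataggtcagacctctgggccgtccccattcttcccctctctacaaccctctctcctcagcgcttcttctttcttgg
S100A3: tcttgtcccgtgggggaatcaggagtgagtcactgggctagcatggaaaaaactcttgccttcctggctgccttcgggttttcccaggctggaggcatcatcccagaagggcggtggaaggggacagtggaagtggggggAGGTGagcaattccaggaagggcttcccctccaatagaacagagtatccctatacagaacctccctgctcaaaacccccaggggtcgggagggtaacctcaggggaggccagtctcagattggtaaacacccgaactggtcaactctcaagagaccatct
S100A2 first start: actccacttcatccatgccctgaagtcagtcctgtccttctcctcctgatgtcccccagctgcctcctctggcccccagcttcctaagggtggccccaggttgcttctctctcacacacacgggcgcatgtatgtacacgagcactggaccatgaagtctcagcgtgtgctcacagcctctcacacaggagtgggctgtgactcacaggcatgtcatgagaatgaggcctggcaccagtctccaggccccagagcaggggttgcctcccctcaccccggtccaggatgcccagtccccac
S100A2 second start: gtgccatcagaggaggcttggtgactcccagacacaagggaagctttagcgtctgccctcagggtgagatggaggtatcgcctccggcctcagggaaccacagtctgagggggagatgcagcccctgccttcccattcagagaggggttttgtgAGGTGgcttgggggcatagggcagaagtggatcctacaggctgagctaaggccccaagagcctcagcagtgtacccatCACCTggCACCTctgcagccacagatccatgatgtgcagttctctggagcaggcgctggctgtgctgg
S100A4 holds 1 core, S100A3 holds 1, the first S100A2 start holds 0 and the second holds 3. The S100A4 core and 1 of those at the second S100A2 start are followed by G, which makes the longer form CACCTG, which always overlaps the short core. Of 35116 human promoters of this length, 51.6% hold at least 1 short core, 17.9% at least 2, and 20.6% at least 1 long core on either strand. A match is a description of letters, and binding of ZEB2 was not measured here.

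**Figure D3:**
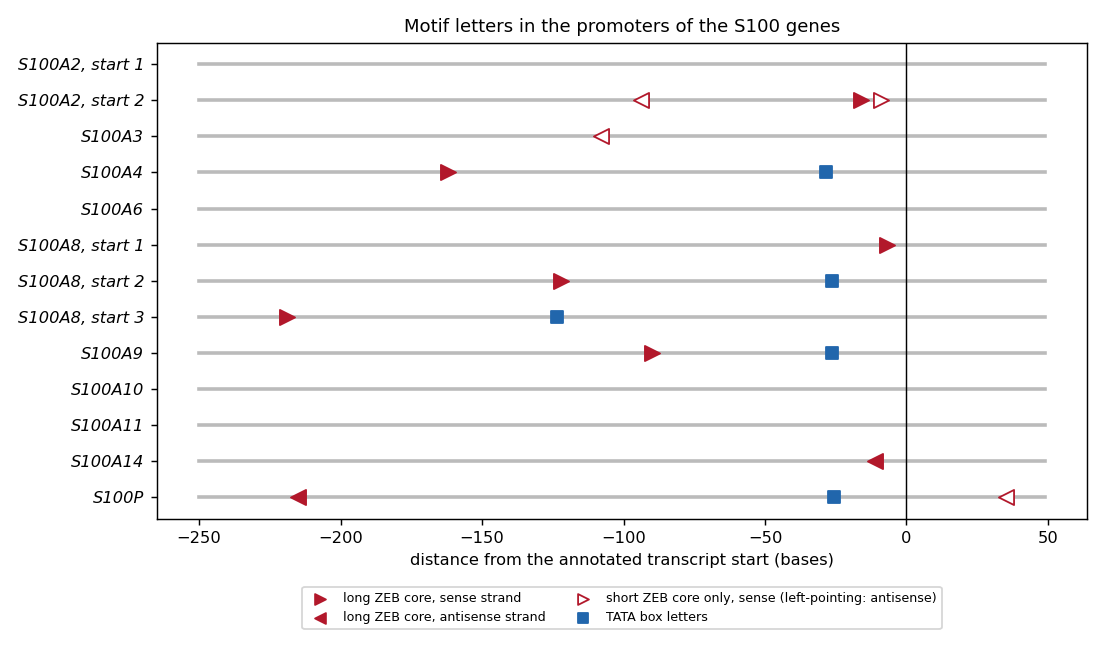
Motif letters in the 13 promoters of the 10 S100 genes, by distance in bases from the annotated transcript start. Red triangles are the ZEB core (filled for CACCTG, open for CACCT alone, pointing right on the sense and left on the antisense strand), and blue squares the letters TATAAA. S100A6, S100A10, S100A11 and the first S100A2 start hold none of these.

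The shared gap covered a short stretch of the cluster. Among protein-coding genes the order is S100A6, S100A5, S100A4, S100A3, S100A2, S100A16 and S100A14. The siRNA control was above the shRNA control by 2.94, 2.97 and 2.36 at S100A4, S100A3 and S100A2. On one side S100A5 differed by -0.38 and S100A6 by 0.32, and on the other S100A16 by -0.33 and S100A14 by 0.32. The 3 genes past 2-fold were thus contiguous, while the flanking genes differed by 0.32 to 0.38 in size by their brightest probe sets. The second S100A6 probe set differed by 0.44. The brightest S100A6 values are close to the highest on the arrays, and S100A14 lay close to the filter level. Differences can flatten at either end, and that was not tested. S100A13, past S100A14, differed by 1.04 in its brightest probe set and by -0.36 in the other. Elsewhere in the cluster the neighbours of members stayed within 2-fold. Between the controls THEM4, beside S100A10, differed by 0.51, PGLYRP4, beside S100A9, by -0.31, and S100A7A, beside S100A8, by 0.61. In the shRNA pair the same stretch was not uniform, since S100A4 and S100A2 differed by 1.92 and 0.83 with S100A3 between them at -0.03. The shRNA pair and the controls share the shRNA control array, so their values are given side by side only. The 3 genes being neighbours was noticed after their values were seen.

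**Figure D4:**
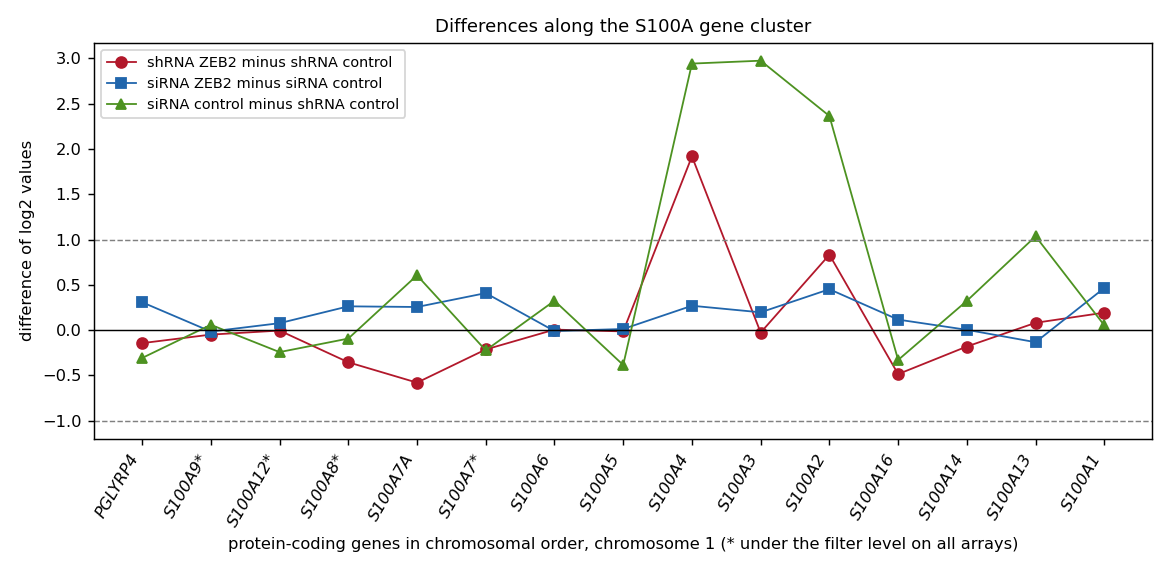
Differences of log2 values for protein-coding genes in chromosomal order along the S100A cluster of chromosome 1, with lines joining neighbours only as a guide and dashed lines at 2-fold. Between the controls S100A4, S100A3 and S100A2 stand between 2.36 and 2.97, with S100A5 at -0.38 and S100A16 at -0.33 beside them.

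S100P, first found in placenta and known to bind ezrin and RAGE, showed the lowest member difference in the siRNA pair. It is the only member outside chromosome 1, on chromosome 4. S100P read 6.30 in siRNA ZEB2 cells, against 7.26 in siRNA control cells, a difference of -0.97 (1.95-fold lower), just short of 2-fold. It read 5.65 in shRNA ZEB2 cells, against 5.55 in shRNA control cells, a difference of 0.09. The siRNA control was the high array, 1.71 (3.28-fold) above the shRNA control, and the siRNA knockdown lay between it and the shRNA arrays. Both of these differences use the siRNA control array. At 1.5-fold S100P was the only member lower in the siRNA pair, where 2.2% of all genes differed by that size and 1.51% were lower. Its neighbours MRFAP1L2 and MRFAP1L1 differed by -0.10 and 0.06 in the siRNA pair and by -0.91 and -0.18 between the controls, and MRFAP1L2 differed by -1.12 in the shRNA pair. The S100P promoter, chr4:6693628-6693927 on the plus strand in GRCh38.p14, is shown with the same capitals because it holds 2 short cores, 1 of them the long form.
S100P: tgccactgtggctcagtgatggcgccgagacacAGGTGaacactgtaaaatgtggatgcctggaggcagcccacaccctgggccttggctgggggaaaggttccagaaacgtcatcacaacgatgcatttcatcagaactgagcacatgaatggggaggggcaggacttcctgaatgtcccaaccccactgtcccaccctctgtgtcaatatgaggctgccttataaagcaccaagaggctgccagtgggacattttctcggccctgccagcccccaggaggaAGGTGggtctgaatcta

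S100A10, S100A6 and S100A11 partner annexins or other scaffolds, and their brightest probe sets differed least over the arrays among the measurable members. S100A10, the partner of annexin A2 and a plasminogen receptor, has lost calcium binding. Its brighter probe set read 13.45 in shRNA ZEB2 cells and 13.37 in shRNA control cells, and 13.84 in siRNA ZEB2 cells and 13.71 in siRNA control cells. S100A6, or calcyclin, read 13.93 in shRNA ZEB2 cells and 13.93 in shRNA control cells, and 14.24 in siRNA ZEB2 cells and 14.25 in siRNA control cells. S100A11, a partner of annexin A1, read 12.43 in shRNA ZEB2 cells and 12.59 in shRNA control cells, and 12.46 in siRNA ZEB2 cells and 12.46 in siRNA control cells. All knockdown differences of these 3 probe sets lay between -0.15 and 0.12, and their control differences between -0.13 and 0.34. The S100A6 values are close to the highest on the arrays, 14.54 to 14.61, where array signals can flatten, and that was not tested. A second, dimmer probe set of S100A6 (228923_at) read 6.43 in shRNA ZEB2 cells against 6.71 in shRNA control cells (-0.28), and 7.48 in siRNA ZEB2 cells against 7.15 in siRNA control cells (0.33). Its siRNA knockdown was 1.05 above the shRNA knockdown, past 2-fold, so S100A6 was not steady by this probe set. A second probe set of S100A10 (238909_at) differed by -0.27 and 0.45. Both second probe sets therefore had opposite signs in the pairs, where the brighter ones were near 0.

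The promoters of S100A6, S100A10 and S100A11 had the most CG dinucleotides among the members, a feature noticed after the values were seen. S100A6 is printed as the example, from chr1:153535942-153536241 on the minus strand in GRCh38.p14, and it has 0 capitals because it holds 0 ZEB cores.
S100A6: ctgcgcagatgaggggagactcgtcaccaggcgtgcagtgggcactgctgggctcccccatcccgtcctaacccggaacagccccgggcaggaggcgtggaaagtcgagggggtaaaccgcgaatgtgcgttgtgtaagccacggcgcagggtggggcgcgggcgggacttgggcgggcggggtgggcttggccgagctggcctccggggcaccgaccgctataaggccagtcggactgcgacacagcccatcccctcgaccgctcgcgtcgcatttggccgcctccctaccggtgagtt
CG dinucleotides numbered 31 in the S100A6 promoter, 32 in S100A10 and 22 in S100A11. They numbered 8 in S100A4, 5 in S100A3, 5 and 4 at the S100A2 starts and 5 in S100P, against a median of 14 over all promoters. The other members, S100A8, S100A9 and S100A14, had between 2 and 5. A short ZEB core occurred in 9 of the 13 promoters, of 7 genes, against 51.6% of all promoters. The S100A8 promoters overlap and share a single core, which is counted at each of their starts. TATAAA, searched on both strands, occurred in 5 of the 13, those of S100A4, S100A9 and S100P and a pair of overlapping S100A8 starts, against 11.5% of all promoters. Counted from the start, it began at -31 in S100A4, -29 in S100A9 and -28 in S100P.

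S100A8 and S100A9, which pair as calprotectin in neutrophils and monocytes, were not measurable. S100A8 read 3.76 in shRNA ZEB2 cells and 4.12 in shRNA control cells, and 4.29 in siRNA ZEB2 cells and 4.03 in siRNA control cells. S100A9 read between 4.01 and 4.12 on all 4 arrays. Neither gene reached the filter level on any array, so an effect of ZEB2 loss on them could not be read here. Of 11 measured leukocyte markers, 3 stayed under the level on every array, PTPRC, SPI1 and TYROBP. The other 8 reached it on at least 1 array, CD14, FPR1, CYBB and LYZ among them. The summed log2 level of the 11 was 54.8 in shRNA ZEB2 and 55.6 in shRNA control cells. It was 56.2 in siRNA ZEB2 and 55.6 in siRNA control cells. S100A14, an epithelial member, read 4.77 in shRNA ZEB2 and 4.95 in shRNA control cells, and 5.27 in siRNA ZEB2 and 5.27 in siRNA control cells, at the edge of what could be read.

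The 4 arrays allow a single kind of fit. For knockdown the methods stand in for replicates, and for the difference between the series the 2 arrays of a series do. A limma fit over all 15082 genes, with knockdown and method as terms, leaves 1 residual degree of freedom. Its error rests on how far the knockdown difference varied between the methods, in the gene itself and, through limma's moderation, over all genes. Neither series was repeated. For the common knockdown effect 0% of all genes passed, and 0 of the 8 S100 genes did. At an unadjusted p under 0.05 this limma fit gave 384 genes, S100A2 among them. S100A2 had a mean difference of 0.64 ± 0.19 (SE), higher in 2 of 2 knockdowns, with an unadjusted p of 0.0279 and an adjusted p of 0.971 in limma. S100A4 had 1.09 ± 0.44, with an adjusted p of 0.971 in limma. A knockdown effect shared by both methods was thus not detectable for any S100 gene at this number of arrays. The fit also could not call ZEB2 itself, whose adjusted p was 0.971.

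For the difference between the series, siRNA minus shRNA arrays in the same fit, limma called 2 of the 8, S100A3 and S100A2, where 6.9% of all genes passed and 4.67% were higher. S100A3 was higher in the siRNA series by 3.09 ± 0.17 (SE), with an adjusted p of 0.0293 in limma. S100A2 was higher by 2.17 ± 0.19, with an adjusted p of 0.0348 in limma. S100A4 differed by 2.12 ± 0.44 with an adjusted p of 0.0672 in limma, and S100P by 1.18 ± 0.31 with an adjusted p of 0.0924. By brightest probe sets, both siRNA arrays were above both shRNA arrays for 7 of the 8 genes, all but S100A11. Of all genes, 39.2% showed this order and 27.5% the reverse. The second S100A10 probe set (238909_at) did not show it, with the siRNA control differing from the shRNA control by -0.15. Between the knockdown arrays themselves the siRNA cells were higher by 3.20 for S100A3, 1.98 for S100A2, 1.29 for S100A4 and 0.65 for S100P.

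**Figure D5:**
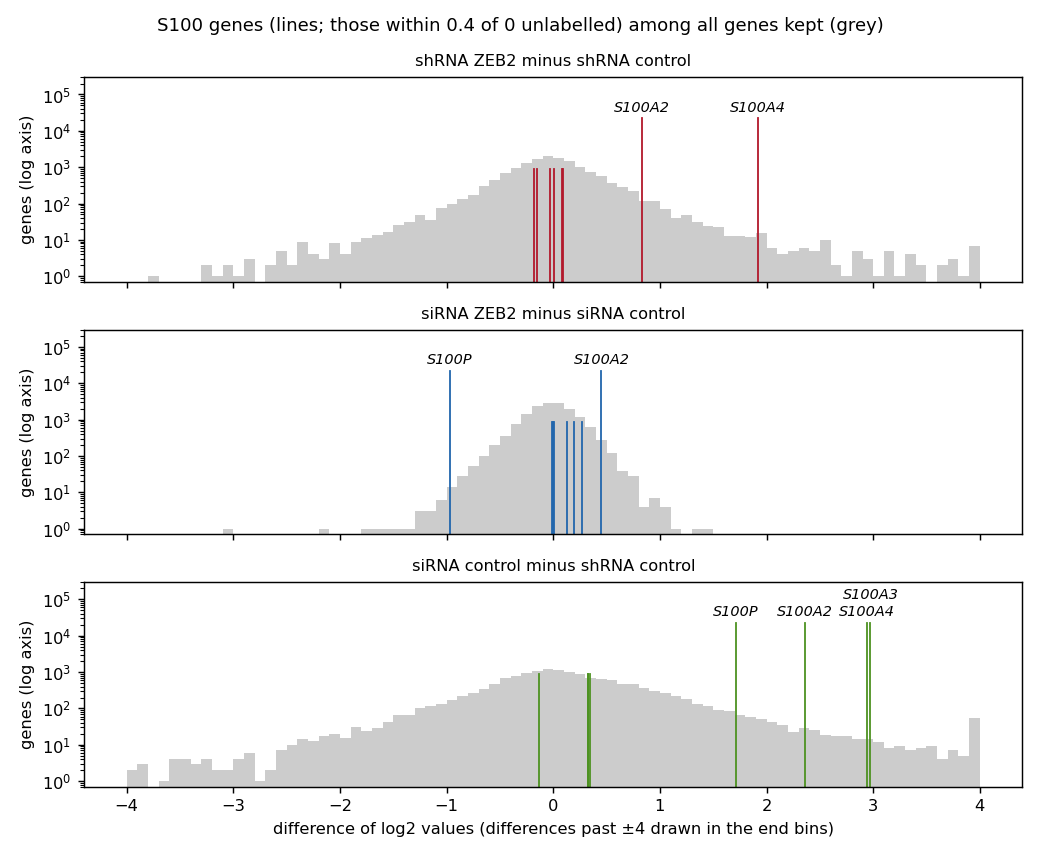
Differences of the 8 measurable S100 genes (coloured lines) among all 15082 genes (grey histograms, log count axis) in the 3 comparisons. S100A4 at 1.92 lies in the upper tail of the shRNA pair, S100P at -0.97 in the lower tail of the much narrower siRNA pair, and S100A2, S100A3, S100A4 and S100P on the high side between the controls.

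Other S100 genes did not share a gap of the size seen at S100A2 to S100A4. By their brightest probe sets S100A13 and S100A7A were also higher on both siRNA arrays, by 0.93 and 1.02 in the limma fit. For this difference between the series limma called neither. Of 10 other S100 genes with a probe set, 5 passed the filter. Inside a pair 0 of the 5 differed 2-fold, where 4.47% (shRNA) and 0.172% (siRNA) of all genes did. The median of the 5 was -0.01 with shRNA, 0.12 with siRNA and 0.05 between the controls. S100A13 alone was 2-fold higher between the controls, where 10.8% of all genes were. S100A1 and S100A16 differed by 0.19 and -0.49 with shRNA and by 0.47 and 0.12 with siRNA. Among genes of the S100-fused type, which carry an S100 domain in a long epidermal protein, only FLG (filaggrin) passed the filter, 1 of 5. FLG read 8.38 in shRNA ZEB2 cells against 4.91 in shRNA control cells, and 7.64 in siRNA ZEB2 cells against 7.28 in siRNA control cells. As with S100A4, the shRNA control was the low array for FLG, 2.37 below the siRNA control. Of 18 cornified envelope genes in the wider cluster, 9 passed and 0 differed 2-fold in any of the 3 comparisons. Of all genes, 4.47% did with shRNA, 0.172% with siRNA and 15.8% between the controls. The largest difference of the 9 was that of LCE1E at -0.56 between the controls.

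Few binding partners of S100 proteins differed 2-fold inside the pairs, and few of all genes did. Of 21 measured, 1 was 2-fold lower with shRNA, where 2.08% of all genes were, and 0 differed 2-fold with siRNA, where 0.172% did. The medians were -0.12 and -0.07, against -0.02 over all genes in each pair. The gene lower with shRNA was MDM2, a ubiquitin ligase, at -1.81, and its 10 probe sets ranged from that value to 0.50, with a mean of -0.53. Between the controls 2 of the 21 were 2-fold lower, where 4.99% of all genes were. These were PPP5C, a protein phosphatase, at -1.36, and PPFIBP1, a liprin bound by S100A4, at -1.03. Which partners passed 2-fold here depended on the probe sets. The other PPP5C probe set differed by -0.06, those of PPFIBP1 by up to -2.61, and with probe sets averaged EZR (-2.13), PPFIBP1 (-1.52) and STIP1 (-1.37) passed 2-fold while PPP5C (-0.71) did not. PPP5C passed the limma test between the series. ANXA2, the partner of S100A10, differed by 0.03, 0.03 and 0.01 in the 3 comparisons by its brightest probe set. That probe set read 14.05 to 14.09, close to the highest values on the arrays. With its 4 probe sets averaged ANXA2 differed by 0.13, 0.03 and -0.16.

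Of 6 measurable receptors for released S100 proteins, 1 was 2-fold higher with shRNA and 0 with siRNA, where 4.47% and 0.172% of all genes differed 2-fold. Between the controls 2 were higher and 1 lower, where 15.8% of all genes differed 2-fold, so more 2-fold differences between the controls was the pattern of all genes too. MCAM, an adhesion molecule that binds S100A8 and S100A9, read 7.31 in shRNA ZEB2 cells against 5.99 in shRNA control cells, and 8.67 in siRNA ZEB2 cells against 8.44 in siRNA control cells, with a control difference of 2.45. Its other probe set differed by 0.02 with shRNA and -0.23 between the controls. TLR4, the receptor of S100A8 and S100A9, differed by 0.45 and 0.11 in the pairs and by 2.51 between the controls. All 4 TLR4 probe sets were higher in the siRNA control, by 1.34 to 2.75. BSG (basigin), another S100A9 receptor, went the other way between the controls, at -2.27. TLR4 and BSG passed the limma test between the series, whereas AGER differed by 0.18, 0.28 and 0.31.

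Genes of the plasminogen system, which S100A10 serves at the cell surface, included some that were lower in the shRNA knockdown. Of 5 measurable, 2 were 2-fold lower there, where 2.08% of all genes were, and 0 differed 2-fold in the siRNA pair, where 0.172% did. The medians were -0.98 and 0.24, against -0.02 over all genes in each pair. PLAU (urokinase) read 10.21 in shRNA ZEB2 cells against 11.29 in shRNA control cells, and 10.76 in siRNA ZEB2 cells against 10.47 in siRNA control cells. PLAUR, its receptor, read 9.40 in shRNA ZEB2 cells against 10.51 in shRNA control cells, and 9.75 in siRNA ZEB2 cells against 10.01 in siRNA control cells. PLAT, the tissue activator, differed by -0.98 and 0.34. Between the controls PLAU differed by -0.82 (-1.96 by its other probe set), PLAUR by -0.51 and PLAT by 0.78. The shRNA control was thus the high array for PLAU and PLAUR. S100A10 itself differed by 0.08 and 0.12.

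Markers of other cell types were read beside these values. The fibroblast list, 8 genes measured, had a summed log2 level of 45.5 in shRNA ZEB2 and 41.3 in shRNA control cells, and of 47.5 in siRNA ZEB2 and 46.6 in siRNA control cells. LUM (lumican) made up most of the gap in the shRNA pair, reading 6.80 in shRNA ZEB2 and 2.92 in shRNA control cells. LUM read 8.71 in siRNA ZEB2 and 8.99 in siRNA control cells, lower in the knockdown while the sum was higher. Its second probe set stayed between 3.22 and 3.74, and FAP and PDGFRA stayed under the filter level on all arrays. In the keratinocyte list, 5 of 7 were measurable, and SFN (14-3-3 sigma) differed by 1.07 and 0.16 in the pairs and 1.31 between the controls. KRT16 differed by 1.03 between the controls, and KRT14 and DSG3 stayed under the level. In the leukocyte list CD14 differed by 2.08, FPR1 by 1.41 and CYBB by -2.77 between the controls, and LYZ by -1.19 in the shRNA pair. Other probe sets did not share this for FPR1 (-0.26), CYBB (-0.59 to 0.0023) and LYZ (-0.06), and with probe sets averaged none of these 3 passed 2-fold. Among the markers set as low in this line, EPCAM differed by 1.39 in the shRNA pair and 1.45 between the controls, GATA3 by 1.08 and CDH1 by 3.83 between the controls (1.94 with its probe sets averaged). The part of these genes in the S100 differences was not tested.

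The genes most like each variable member were found by Euclidean distance over the 3 differences, which rest on 4 arrays, as a description only. Nearest to S100A4 were CLIC3, a chloride intracellular channel protein (distance 0.116), and the transcription cofactor gene VGLL3 (0.213). CLIC3 differed by 1.94, 0.20 and 3.04 in the shRNA pair, the siRNA pair and between the controls. Nearest to S100A3 were RERG, a RAS-like GTPase gene (0.174), and the transporter gene ABCA5 (0.267). ITGB2-AS1 (0.133) and ENPP4 (0.205) were nearest to S100A2, and GAPLINC (0.171) and the neurotrophin receptor gene NGFR (0.293) to S100P. GAPLINC differed by -0.06, -0.95 and 1.79.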

How the data were processed

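Total RNA from 4 MDA-MB-231 cultures was hybridised to 1 Affymetrix U133 Plus 2 array each. Each probe set's value was deposited on the log2 scale after RMA with affy, per the submitters' processing notes, whose versions are not given in the sources used here. Array medians were nearly equal (5.34 to 5.37), and RMA shrinks differences of dim probe sets. Scanner files were not used here. Of 54675 probe sets, 41097 had 1 gene symbol, 1801 several and 11777 none in the platform annotation. The symbols of all 10 members match RefSeq GRCh38.p14, which also gave the gene order, transcript starts and promoter sequences.

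A gene was represented by its brightest single-symbol probe set by mean over the arrays, and kept when its highest value reached the 40th percentile of all values, 4.77. Members, the 11 gene lists (134 genes) and tests were chosen with earlier results of these data known. The named genes were ZEB2, every member, the list genes at 2-fold in any comparison or else the 1 with the largest difference, the 2 genes nearest to each member at 2-fold, and chromosomal neighbours. ANXA2, AGER, PLAT, KRT19, ESR1, ERBB2, S100A1, EZR, STIP1 and the markers under the filter level were named in addition, after their values were seen. Differences have no test. limma 3.58.1 in R 4.3.3 (lmFit, eBayes with trend, 2-sided, Benjamini-Hochberg over all genes kept, at 0.05) tested knockdown and method together. For both terms its p-values rest on how far the knockdown difference varied between the methods. They do not measure variation between repeated cultures or series. The moderation draws each gene's error towards that of genes of similar level, so an SE is not the gene's own spread alone. Promoter motifs were searched in Python 3.11.15 and figures drawn with matplotlib 3.10.9. Alternatives were other summaries, thresholds, filters, scalings and moderation settings.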

Additional observations from a re-analysis of the deposited data

Results flagged for a closer look

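Probe sets of 3 members differed in opposite directions in the 2 pairs by more than 0.235, the standard deviation of the siRNA differences over all genes. The shRNA differences over all genes had a standard deviation of 0.499, and the 3 shRNA differences were all smaller than that in size. How many of all genes met this rule was not counted, and this contrast was not tested. S100A8 (202917_s_at) differed by -0.35 with shRNA and by 0.26 with siRNA, under the filter level on every array. The second S100A6 probe set (228923_at) differed by -0.28 and 0.33, and the second S100A10 probe set (238909_at) by -0.27 and 0.45. The brighter probe sets of S100A6 (0.01 and -0.01) and S100A10 (0.08 and 0.12) did not share this.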

How the results depend on the processing

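No paired analysis was possible because the labels give no replicate numbers, other than the limma fit with method as a block, which called 0 S100 genes for knockdown with and without that block (384 and 40 of all genes at an unadjusted p under 0.05). The number of arrays limits every value, S100A8 and S100A9 were too dim to compare, and S100A14, which was compared, lay close to the filter level. At 1.5-fold in place of 2-fold, the S100 genes numbered 2 with shRNA and 1 with siRNA, against 2211 and 332 of all genes. At 3-fold, 126 of all genes were higher and 85 lower with shRNA, 0 and 4 with siRNA, and 629 and 225 between the controls, with the S100 counts as at 2-fold. When a gene's probe sets were averaged, 3 of all genes were higher and 10 lower with siRNA, against 7 and 19. With the siRNA control in place of the shRNA control, chosen after seeing the data, 4 S100 genes were 2-fold lower in the shRNA knockdown. None was 2-fold higher, and S100A4 turned to -1.02. Of all 15082 genes, 1232 were lower and 474 higher in that comparison. With the shRNA control in place of the siRNA control, also chosen afterwards, 3 S100 genes were higher in the siRNA knockdown, S100A2, S100A3 and S100A4. There 1492 of all genes were higher and 893 lower. The limma test between the series called 4 S100 genes after quantile normalization (S100A4 and S100P added) and 3 with the mean of probe sets (S100A4 added), where all genes called numbered 2490 and 2343 against 1040, and 248 without a filter. The cause was not tested. S100A2 and S100A3 were called under each alternative of that test. The common knockdown test called 0 S100 genes under each alternative. Over single genes, leaving aside the exchanged controls, 164 differences moved by less than 0.235 and 1 by more. That 1 was S100A10 between the controls with the mean of its probe sets, at 0.0976. Many of the 164 could not move. The filter settings and the removal of cross-hybridising probe sets left the probe set of each compared member as it was. So did averaging for members with 1 probe set.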
